A study of Mus musculus with 2 samples.

Results

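The chromatin described here is a 500 kb stretch of mouse chromosome 11, chr11:82008194-82508192 in mm9, which lies 160 to 660 kb from the Ccl2 promoter on its higher-coordinate side. Its members are set by position and not by reads, though the stretch was picked with earlier results of these data known. Its members are the DpnII fragment ends whose sequence has 1 copy in the genome, and it holds 2131 of the 424613 such ends of the Ccl2 profile. The stretch has 1243 fragments with 2486 ends. Another 124 ends have several copies and 231 have no value, and neither kind was used. The profile comes from 4C-seq, a form of chromosome conformation capture, in which cross-linked chromatin is cut and ligated and inverse PCR recovers the DNA joined to a chosen viewpoint. The cells were bone marrow-derived macrophages of C57BL/6 mice, labelled UT, grown with L929 conditioned medium and taken on day 7 of differentiation. There was 1 library for the Ccl2 viewpoint and 1 for a Jun viewpoint, both from such cells, so every value describes 1 library and no test between samples could be made. Intervals are exact (Clopper-Pearson) 95% binomial intervals. They cover counting error only, and since no molecular identifiers were used, PCR copies enter as separate reads.

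As background, Ccl2 encodes a chemokine that draws monocytes out of the blood into inflamed tissue, and macrophages are a main source of it. A promoter is ligated most often to chromatin close by, and the frequency falls with distance. Chromosomes are also folded into domains, within which contact is frequent and across whose borders it drops. A stretch with few genes beyond such a cluster shows how far the contact of a promoter reaches into chromatin that is not part of its own gene group.

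In the gene order of GRCm38.p6, the last chemokine gene before the stretch is Ccl1, whose product attracts cells that carry the receptor CCR8. After it come the lncRNA gene Gm38577, then Tmem132e, the snRNA gene Gm24612, the lncRNA gene Gm11426 and Cct6b, a gene of a chaperonin subunit. Tmem132e encodes a transmembrane protein that is best known from the hair cells of the inner ear. Positions of that gene table do not apply to mm9. A pair of gene starts could still be placed in the profile through the sequence just upstream of them, because the deposited table gives the length of every DpnII fragment and the length from each of its ends to the nearest second-cutter site. In the promoter sequences of RefSeq (GRCm38.p6, plus strand of chromosome 11, 5′ to 3′), the part that spans these sites is shown for both genes, with the DpnII site GATC and the second-cutter site GTAC in capitals. It covers bases 21 to 144 of the 300 bases listed for Tmem132e and bases 32 to 224 of those for Gm11426.
Tmem132e: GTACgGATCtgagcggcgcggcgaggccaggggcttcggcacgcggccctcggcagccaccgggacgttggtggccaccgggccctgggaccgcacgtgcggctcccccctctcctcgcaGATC
Gm11426: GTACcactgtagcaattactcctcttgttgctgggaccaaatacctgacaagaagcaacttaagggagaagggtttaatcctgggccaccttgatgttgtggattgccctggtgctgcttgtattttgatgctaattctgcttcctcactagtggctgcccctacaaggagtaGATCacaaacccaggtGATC

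The Tmem132e sequence holds a DpnII fragment of 115 bp with 120 bp from its higher-coordinate end back to GTAC. Exactly 1 fragment of the chromosome 11 profile has both lengths, and it is centred at position 82202225, which is 354 kb from the viewpoint. The Gm11426 sequence holds a fragment of 16 bp with 189 bp back to GTAC, and the 1 fragment with both lengths is centred at 82446817, at 599 kb. Tmem132e lies before Gm11426, as in the gene order. Only matches inside the stretch were kept, so their place between Ccl1 and Cct6b was set in advance. Among promoter sequences of chromosome 11 with such a layout, 132 fragments were compared with the profile, and each of them had a match: 57 matched 1 fragment and 75 matched several. With the 2 ends of the fragments exchanged, 56 of the 132 had no match, and in the profile of chromosome 4 58 had none. A chance match remains possible for a single layout, as that of Tmem132e matched 2 fragments of chromosome 4 and that of Gm11426 none. Gm38577 and Gm24612 had no single match inside the stretch. A match of Ccl1 or Cct6b outside it would not have been kept, so whether they can be placed in this way was not examined.

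The stretch was thinly ligated to the Ccl2 promoter, but well above the level of the far chromosome. Of its 2131 unique ends, 281 had a read, which is 13.2% (11.8 to 14.7%), and they held 19800 reads, or 2.20% of the 901507 reads more than 5 kb from the viewpoint. The chemokine side just before it, from 20 to 160 kb, had a read on 82.6% of 557 ends (79.2 to 85.6%). The chromatin just after it, from 660 to 1000 kb, had one on 19.8% of 1303 ends (17.7 to 22.1%). As a whole the stretch was therefore lower than both of its neighbours, with 39.6 reads per kb against 858 before it and 60.8 after it. This did not hold for its inner 100 kb, which had a read on 27.8% of ends and 111 reads per kb, above the range after the stretch. The outer 400 kb, with 9.07% and 21.8 reads per kb, was lower than both neighbours. More than 10 Mb from the viewpoint 1.38% of 350677 ends had a read (1.34 to 1.42%), so that the share in the stretch was 9.57 times as high.

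**Figure D1:**
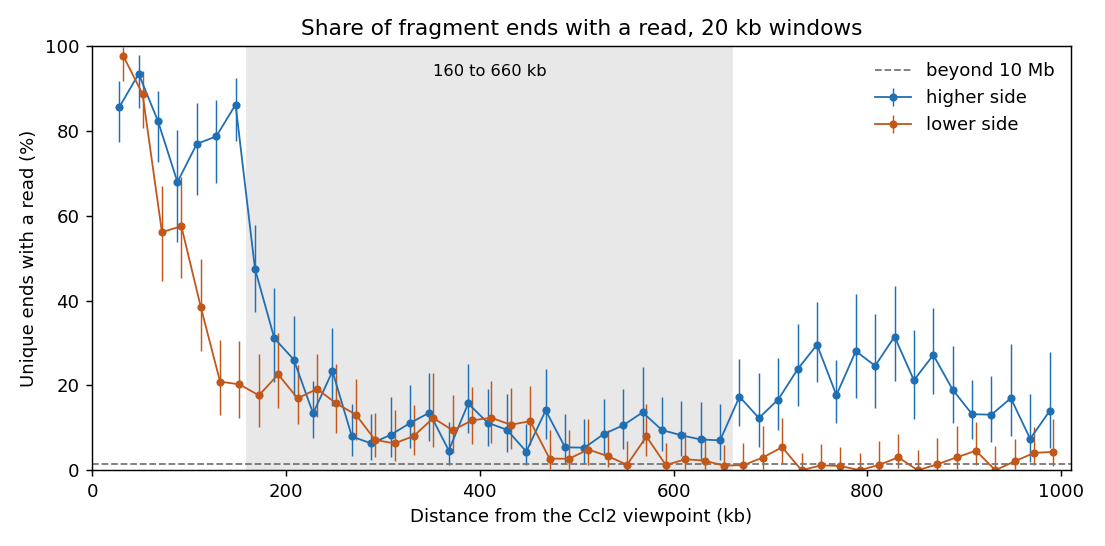
Percentage of unique fragment ends with a read (vertical axis) in 20 kb windows by distance from the Ccl2 viewpoint in kb (horizontal axis), for the higher side (blue) and the lower side (orange), with exact 95% binomial intervals; the grey band is the stretch and the dashed line the level beyond 10 Mb. On the higher side the share falls from 86.2% at 140 to 160 kb to 47.5% at 160 to 180 kb, runs between 4.40% and 15.7% from 260 to 660 kb and rises beyond.

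At the near edge the level changed over a short distance. The last 10 kb before the stretch had a read on 33 of 41 ends and the first 10 kb inside it on 26 of 47, with 5708 and 2275 reads. A fragment exactly 160 kb away, just outside by the rule, had 399 reads on its 2 ends. At the far edge, the last 10 kb inside had a read on 1 of 35 ends and the first 10 kb outside on 8 of 55, with 21 and 966 reads. Over 50 kb windows the far edge ran from 6.74% (610 to 660 kb) to 15.3% (660 to 710 kb) and 24.9% (710 to 760 kb). In gene order the gene that follows the stretch is Cct6b, but where it begins in mm9 was not analysed here.

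Inside the stretch, the share of ends with a read fell over the first 100 kb and then stayed level for 400 kb. From 160 to 260 kb, reads were found on 130 of 467 ends (27.8%, 23.8 to 32.1%), with 39.1% in the first 50 kb (86 of 220 ends, 7592 reads) and 17.8% in the next (44 of 247 ends, 3489 reads). From 260 to 660 kb, they were found on 151 of 1664 ends (9.07%, 7.74 to 10.6%). In the 100 kb windows of that range the share was 9.35%, 9.15%, 8.72% and 9.07%, values that differ by much less than the width of their intervals, of which the lowest bound is 6.18% and the highest 12.6%. Reads were not level in the same way, with 26.2 per kb from 260 to 460 kb and 17.4 per kb from 460 to 660 kb. These 400 kb hold both placed gene starts, and their share of ends with a read was 6.58 times that beyond 10 Mb. The inner 100 kb thus held 56.0% of the reads of the stretch and 46.3% of its ends with a read.

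The windows of 50 kb show how even the outer part was. Counted from 260 kb, ends with a read numbered 17 of 213, 22 of 204, 24 of 217 and 17 of 231 in the windows up to 460 kb. In the windows from there to 660 kb they numbered 17 of 202, 19 of 211, 22 of 193 and 13 of 193. The lowest share was 6.74% (610 to 660 kb, chr11:82458194-82508193) and the highest 11.4% (560 to 610 kb, chr11:82408194-82458193), and their intervals overlap. Reads were less even than ends: 7 of these 8 windows held between 634 and 1124 reads, while that from 360 to 410 kb, just downstream of the Tmem132e start, held 2160. A single end gave 461 of those.

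The loss of signal across the stretch lay in the number of ends with a read more than in the reads per end. The median of the ends with a read was 104 reads from 110 to 160 kb, before the stretch, and 45.5 in its first 50 kb. In the 10 windows of 50 kb it stayed between 21 and 60 reads with no steady course, while the share of ends with a read fell from 39.1% to 6.74%. Over the whole stretch the median was 42 reads, against 52 from 660 to 1000 kb and 45 beyond 10 Mb. Over the whole stretch, an end with a read was thus read about as deeply as one far out on the chromosome. By fragments with and without a second-cutter site, the medians were 92 and 21 reads in the inner 100 kb. They were 58.5 and 18 in the outer 400 kb and 64 and 13 beyond 10 Mb.

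**Figure D2:**
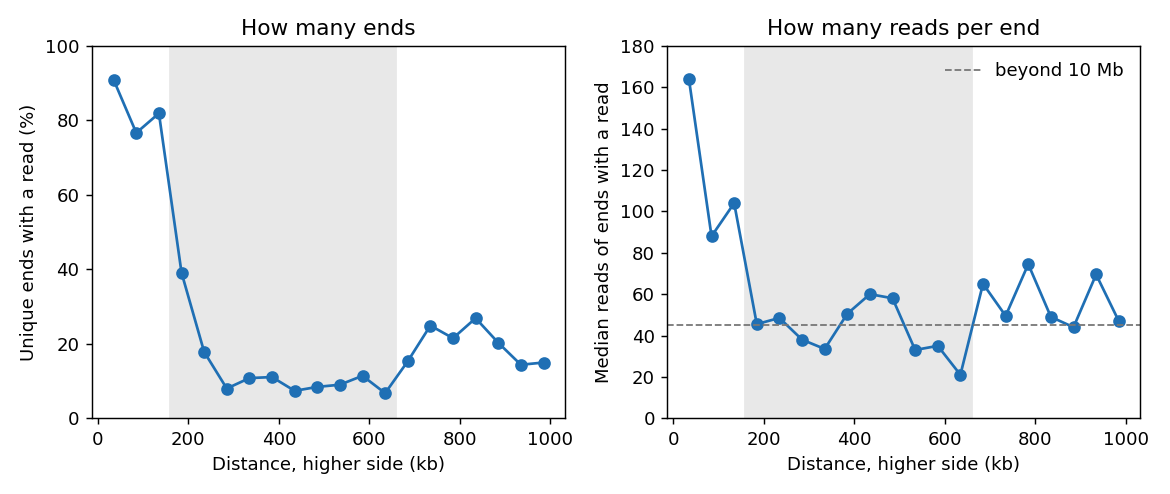
Left, percentage of unique ends with a read, and right, median reads of the ends with a read, in 50 kb windows of the higher side (horizontal axis: distance in kb); the grey band is the stretch and the dashed line the median beyond 10 Mb, 45 reads. The left curve falls over the first 100 kb of the stretch, stays low to its end and rises beyond it, while the right curve stays between 21 and 60 reads inside it.

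Reads were spread over many ends. The 281 ends with a read had from 1 to 461 reads, with quartiles at 11 and 100. Of them, 18 had a single read, 35 had fewer than 5, and 71 had 100 or more and held 66.1% of the reads. It took 45 ends to reach 50 percent of the reads, and the 10 highest ends held 17.3%. The end with the most reads belongs to the fragment centred at 82253729 (406 kb, 1237 bp long), which lies 51.5 kb downstream of the Tmem132e start and held 461 reads, 2.33% of the stretch. The other end of that fragment had none, and 2 of the 9 other ends within 2 kb had a read.

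The other 9 of the 10 highest ends all lay in the inner 100 kb. They belong to the fragments centred at 82076849 (403 reads), 82014753 (401), 82024193 (379), 82107377 (361) and 82059633 (328), and at 82012049 (286), 82022385 (283), 82057841 (265) and 82044705 (261). Around the fragment at 82014753, 8 of 19 other ends within 2 kb had a read, and its own other end had 170 reads. Around that at 82012049 it was 9 of 17 ends, and its other end had 151 reads. Around the others it ran from 4 of 24 ends (82076849) to 8 of 21 (82024193). The other end had 0 reads in the remaining fragments, apart from that at 82044705, whose other end was not used. The share of neighbours with a read around the highest end, 2 of 9, lay within the range of the inner ones.

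**Figure D3:**
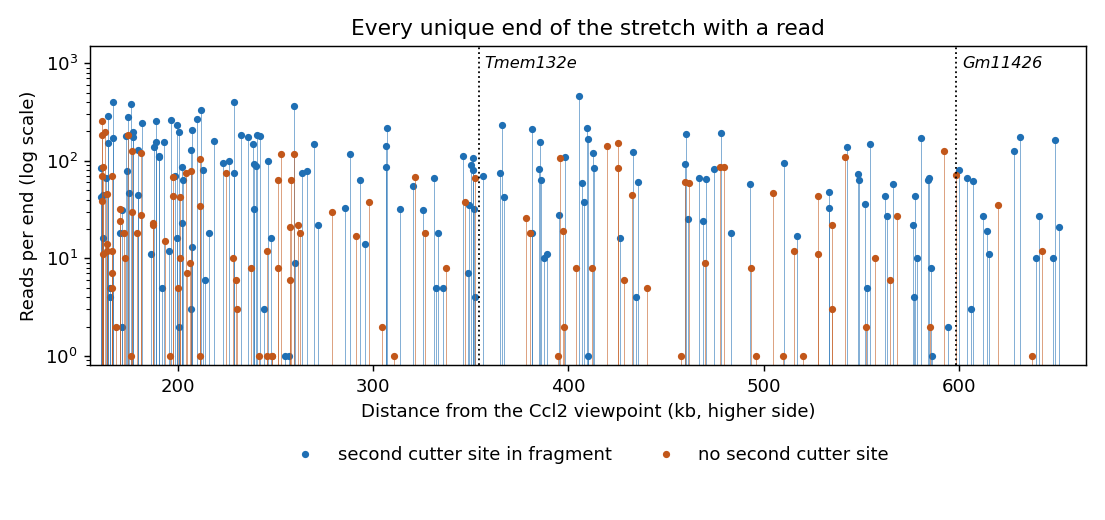
Reads (vertical axis, log scale) of each of the 281 unique ends of the stretch with a read, by distance from the Ccl2 viewpoint in kb (horizontal axis), coloured by whether the fragment holds a second-cutter site; dotted lines mark the placed starts of Tmem132e (354 kb) and Gm11426 (599 kb). Ends crowd together up to 260 kb and are sparse beyond, and the highest end, with 461 reads, stands at 406 kb.

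At the start of Tmem132e itself no contact was detected. Both ends of its fragment are unique and both had 0 reads. This was the common outcome: of the 973 fragments of the stretch with both ends unique, 746 had no read on either. The fragment holds no second-cutter site, and in the outer 400 kb 5.22% of ends on such fragments had a read. In the 10 kb upstream of the Tmem132e start 10 of 51 ends had a read (19.6%, 9.82 to 33.1%), with 573 reads. In the 10 kb downstream, towards the gene, 1 of 38 ends had one (2.63%, 0.0666 to 13.8%), with 69 reads. The nearest ends with a read lay 1.78 kb upstream and 2.22 kb downstream. Within 50 kb the sides were close, with 25 of 213 ends upstream (11.7%, 7.74 to 16.8%) and 20 of 217 downstream (9.22%, 5.72 to 13.9%), and 1330 and 1287 reads. The sides thus stood further apart within 10 kb than within 50 kb, but the former counts rest on few ends of 1 library, and the difference was not tested.

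At the start of Gm11426 the fragment had a read on 1 of its 2 ends, with 71 reads on the end that the file names 3′ and 0 on the other. In the 20 kb upstream 9 of 91 ends had a read (9.89%, 4.62 to 17.9%), and in the 20 kb downstream 7 of 87 (8.05%, 3.30 to 15.9%). These shares lie within the interval of the outer 400 kb as a whole. Within 20 kb of either gene start, on both sides, the interval of the share thus overlapped that of the outer 400 kb.

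Neighbouring ends shared reads more often in the inner part than in the outer part. In the inner 100 kb, the end after one with a read also had a read in 52 of 130 cases (40.0%), where 27.8% of all ends had one. In the outer 400 kb this held in 17 of 151 cases (11.3%), where 9.07% of all ends had one. The end after can be the other end of the same fragment, and within the inner 100 kb the share itself fell with distance. The part of either in these values was not tested. The longest run with reads was 10 ends from 82008689 to 82009617, right at the near edge (830 reads), and the others of 4 ends or more that rank highest, of 7, 6, 5 and 4 ends, also lay below 202 kb. Fragments with both ends unique numbered 973, and of the 30 that had reads on both, 26 lay in the inner 100 kb. In the outer part no run was longer than 3 ends, and 119 of its 134 runs were single ends, against 54 of 78 in the inner 100 kb.

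The longest run of ends with no read was 76 ends over 17.1 kb, between the fragments centred at 82288545 and 82305649 (440 to 457 kb). The next held 37 ends (82435025 to 82440673), 36 ends (82215873 to 82226417), 35 ends (82246353 to 82251841) and 33 ends (82468609 to 82475905). The run of 36 ends and that of 35 ends lie downstream of the Tmem132e start, at 368 to 378 kb and 398 to 404 kb, on either side of a group of ends with reads, and the latter ends just before the highest end. At equal distance on the lower side the 3 longest runs held 96, 94 and 60 ends, so runs of this length were not particular to the stretch.

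Fragment structure went with the share of ends with a read. Of ends on fragments that hold a second-cutter site, 169 of 804 had a read (21.0%, 18.3 to 24.0%), with a median of 66 reads. Of ends on fragments without such a site, 112 of 1327 had one (8.44%, 7.00 to 10.1%), with a median of 18 reads. The first kind made up 37.7% of the ends of the stretch and held 77.5% of its reads, and all 10 of the highest ends were of this kind. The same order held beyond 10 Mb, with 2.14% against 0.751% and medians of 64 and 13 reads. By length from the end to the second-cutter site, 15.1% of ends had a read under 200 bp, 18.8% at 200 to 400 bp, 13.3% at 400 to 800 bp, 8.64% at 800 to 1600 bp and 4.65% at 1600 bp or more. By fragment length the share was 7.75% under 100 bp (413 ends), 8.43% at 100 to 200 bp, 15.2% at 200 to 400 bp, 14.5% at 400 to 800 bp and 22.0% at 800 bp or more (291 ends).

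The stretch has fewer ends of the well-read kind than its comparators, 37.7% against 43.0% at equal distance on the lower side and 45.0% beyond 10 Mb. The comparisons were therefore repeated within each kind. From 260 to 660 kb the share was 7.05 times that beyond 10 Mb for fragments with a second-cutter site and 6.95 times for those without. From 660 to 1000 kb it was 2.10 and 2.16 times that of the outer 400 kb. Over all ends these contrasts were 6.58 and 2.18. Against the lower side at equal distance the share of the stretch was 1.43 and 1.54 times as high, and 1.40 times over all ends. The contrast with the chemokine side did differ by kind. From 20 to 160 kb the share was 4.52 times that of the stretch with a second-cutter site and 8.98 times without, and 6.26 times over all ends. The first ratio is bounded, since 21.0% of such ends of the stretch had a read and a share cannot exceed the whole. The part of this limit in the difference by kind was not tested.

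**Figure D4:**
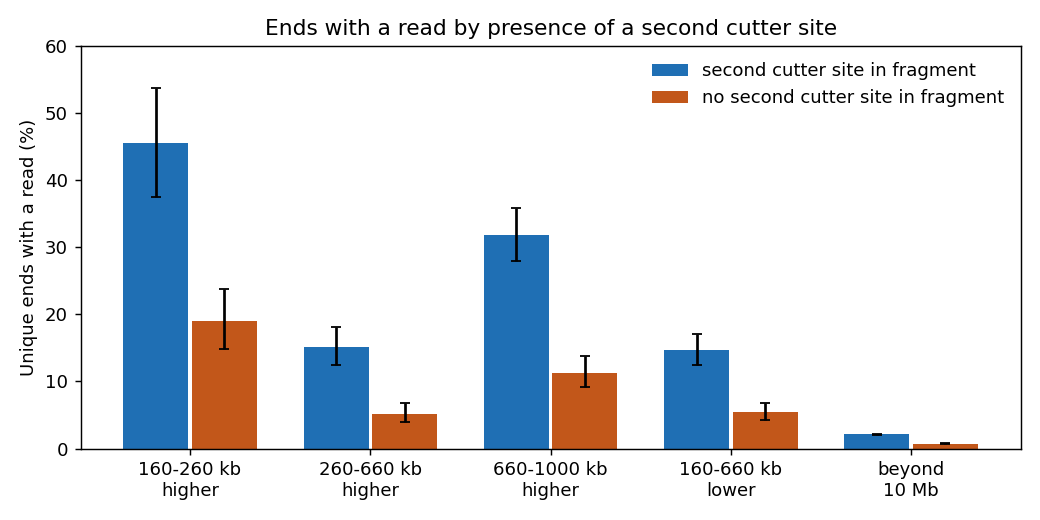
Percentage of unique ends with a read (vertical axis) on fragments with (blue) and without (orange) a second-cutter site, in both parts of the stretch, in the range beyond it, at equal distance on the lower side and beyond 10 Mb; error bars are exact 95% binomial intervals. The blue bar is the higher of the pair in every range, 45.5% against 19.0% in the inner 100 kb and 15.1% against 5.22% in the outer 400 kb.

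The stretch was then set against the decay of reads with distance. The expectation was a power law of distance, fitted to the reads per kb of both sides on log10 scales from 20 to 2000 kb, with an exponent of -1.35. The stretch held 0.565 times the reads expected. The lower side at equal distance held 0.444 times, so a shortfall against this line was not particular to the stretch. By ends with a read in place of reads, with a line of their own, the stretch held 0.896 times the expectation. Against a monotone decay of both sides the ratios of the stretch were 0.954 and 1.03, so its shortfall depends on the shape assumed for the decay. Both fits include the stretch, and the monotone one, fitted to windows of 10 kb, can follow it, so ratios near 1 are partly built in. None of the 50 windows of 10 kb of the stretch reached 3 times the expectation, where 7.14% of the 196 windows from 20 to 1000 kb on both sides did. At equal distance on the lower side it was also 0 of 50. The raised windows were 2 of 14 from 20 to 160 kb and 12 of 34 from 660 to 1000 kb, on the higher side. In the stretch 18 windows were at 1/3 of the expectation or less, 36% of the 50 against 34.7% of all windows, the stretch included. The low windows elsewhere were unevenly placed: 1 of 14 from 20 to 160 kb and 1 of 34 from 660 to 1000 kb on the higher side, but 26 of 50 at equal distance on the lower side. When windows of the stretch were scored by ends with a read, 7 were low in place of 18.

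The ratio of reads to expectation was less even than the share of ends. In the first 50 kb of the stretch it was 0.933, and in the next 50 kb 0.594. Its lowest values were 0.249 and 0.262, in the windows at 260 to 310 kb and 310 to 360 kb, which lead up to the Tmem132e start. The next window, up to 410 kb, had 0.719, and in the 5 windows beyond between 0.393 and 0.564. Of the 50 windows of 10 kb, 5 lay above the expectation, against 4 of 50 at equal distance on the lower side. On the higher side it was 8 of 14 from 20 to 160 kb and 29 of 34 from 660 to 1000 kb. The highest window of the stretch was that from 400 to 410 kb, with 950 reads and a ratio of 1.70, which without its highest end would be 0.873. The low windows formed 8 runs, of which the longest was chr11:82328194-82388193 (480 to 540 kb) and the others ran from 10 to 30 kb, among them chr11:82118194-82148193 with 335 reads and a ratio of 0.124 and chr11:82158194-82188193 with 307 reads and 0.136.

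**Figure D5:**
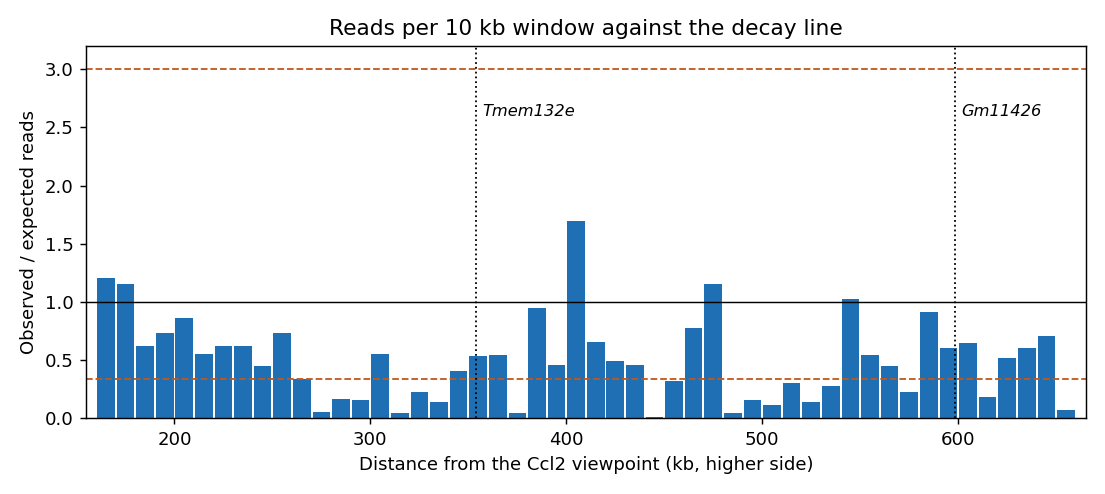
Observed over expected reads (vertical axis, linear) in the 50 windows of 10 kb of the stretch by distance from the Ccl2 viewpoint in kb (horizontal axis), with dashed lines at 1/3 and 3 and dotted lines at the placed starts of Tmem132e and Gm11426. No window reaches 3, and the highest, 1.70, lies at 400 to 410 kb.

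The same distances on the lower side of Ccl2 gave a partly different course. Over 160 to 660 kb, reads were found there on 212 of 2245 ends (9.44%, 8.26 to 10.7%), with 15577 reads, against 13.2% and 19800 reads in the stretch. The higher side thus held 56.0% of the reads and 57.0% of the ends with a read at these distances. Between 260 and 460 kb the intervals of the sides overlapped, with 9.25% (7.40 to 11.4%) in the stretch and 10.2% (8.34 to 12.4%) on the lower side. From 460 to 660 kb the stretch had 8.89% (7.01 to 11.1%) and the lower side 3.03% (1.97 to 4.44%), and these intervals do not overlap. The level share of ends in the outer stretch therefore had no counterpart in the second 200 kb of that range on the lower side, but with 1 library the difference could not be tested over samples.

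In the Jun library, whose viewpoint lies on chromosome 4, the same distances held quite other levels. The libraries differ in depth, with 1098887 reads more than 5 kb from the Jun viewpoint against 901507 for Ccl2. Counts were not scaled for this, so the levels of the 2 libraries are not directly comparable. On the higher side of Jun 1664 of 1868 such ends had a read (89.1%, 87.6 to 90.5%), with a median of 111 reads. On its lower side it was 197 of 1716 (11.5%, 10.0 to 13.1%), with a median of 30 reads. Over all 500 kb, the share of the stretch beyond the chemokine genes, 13.2%, was close to that of the lower side of Jun, with overlapping intervals. The course and the reads differed. From 160 to 260 kb the stretch had 27.8% (23.8 to 32.1%) and the lower side of Jun 8.71% (5.72 to 12.6%). From 260 to 660 kb the lower side of Jun had the higher share, with an interval of 10.4 to 13.8% against 7.74 to 10.6%, and these overlap slightly. Its reads per kb there were not higher, with 20.0 against 21.8 in the stretch. Over all 500 kb the stretch held 39.6 reads per kb with a median of 42 reads, and the lower side of Jun 17.9 reads per kb. A thin level at these distances was thus seen on 1 side of Jun and both sides of Ccl2.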

How the data were processed

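4C-seq libraries of 2 viewpoints were analysed, 1 per viewpoint. Per the labels' protocols, chromatin was fixed with 2% formaldehyde for 10 min and cut with DpnII, then with a second 4 bp cutter, and 8 PCRs were pooled. Positions are in mm9, as the submitters' processing notes name it. No source used here names the aligner. The authors deposited estimated counts of reads per fragment end, not scaled to depth, per the file headers and the values: of unique-end values from 0.05 to 10, 70.3% lie within 0.1 of a whole number. The table also gives copies in the genome and lengths. Counts were rounded; 9 ends of the stretch above 0 became 0. The viewpoint is the fragment centre with the most reads on 1 end (81848193 on chromosome 11; 94721073 on chromosome 4), and ends within 5 kb were left out. The Ccl2 library held 1248937 reads on unique ends, 20.7% of them on 1 end. The decay line used 10 bins of equal log width. Code ran on Python 3.11.15 with numpy 2.4.6, pandas 2.3.3, scipy 1.17.1 and scikit-learn 1.9.0 and was tested on simulated reads. The stretch, lists and rules (10 highest ends, 5 longest empty runs, every 50 kb window, runs of raised or low windows) were chosen with earlier results of these data known. The placing of gene starts by fragment lengths, the 100 kb and 400 kb parts, the runs of ends with reads and the comparisons by second-cutter site were added after the values had been seen. Alternatives concerned copies, read minimum, single ends, the expectation, window size, edges and fragment length.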

Additional observations from a re-analysis of the deposited data

Results flagged for a closer look

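Ends with several copies in the genome, which the values above leave out, carried signal within the stretch: 21 of 124 such ends had a read (16.9%, 10.8 to 24.7%), with 646 reads. They are given here because their number exceeded a fixed limit of 3 ends, which is not a test. At equal distance on the lower side 22 of 156 had one (14.1%, 9.05 to 20.6%), and beyond 10 Mb 3.32% of 51129. Their reads can stem from any of their copies, and their part in the contact of the stretch was not tested.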

How the results depend on the processing

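Of 47 recomputed values, 25 stayed within the counting interval of the reported value (counts: within 1.5 times), 21 moved and 1 changed sides. No replicates exist to leave out. Against a monotone decay, the ratio by ends turned from 0.896 to 1.03 and that by reads rose to 0.954; with a line of the higher side alone they were 0.743 and 0.478. With edges at 180 and 640 kb, 11.7% of ends had a read, the stretch held 1.70% of the reads used, the higher side 51.0% of reads at these distances, the ratio by reads was 0.495 and the 10 highest ends held 19.9%. With 5 reads as the minimum, 11.5% of ends had a read. With all ends whatever their copies, these were 2.07% of reads, 54.3% on the higher side, a ratio of 0.513 and 16.8% on the 10 highest ends. Without the highest end, they were 2.15%, 55.4%, 0.554 and 16.7%, and 57.3% of reads lay in the inner 100 kb. Capped at the 99th percentile, the stretch held 2.39% of reads. Low windows numbered 9 of 20 kb, and 7 of 10 kb when scored by ends with a read; raised windows stayed at 0 in the 5 alternatives run. The cause of these shifts was not tested. Near gene starts, the few unique ends limit the precision.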
